A study of Mus musculus with 8 samples.

Results

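The 35 genes described here carry the insulin and insulin-like growth factor signal from its ligands to the mTOR kinase, glucose uptake and the RSK kinases. They were found on the array by gene name, a rule that uses no measured value, and each of the 35 was present: 86 of the 56605 probes carry 1 of the 35 names, among 37074 gene names in all. Between mice injected with saline (Co) and with sonicated *Porphyromonas gingivalis* (Pg), none of the 35 genes changed at a false discovery rate q under 0.1 when each was read from its brightest probe, the one with the highest mean signal, where 6.23% of all genes did. Of the 48 further probes of these genes that could be tested, 7 did: a probe of *Igf1* was higher in Pg mice, and probes of *Inpp5e* (2 probes), *Rps6ka3* (2 probes), *Gsk3b* and *Slc2a4* were lower, where 1.38% of such probes on the array were called higher and 9.51% lower. One of the *Rps6ka3* probes entered the test through the Co arrays alone, being above background on no Pg array, so that 6 of the 7 were measured in both groups. *Inpp5e*, *Rps6ka3* and the insulin receptor gene *Insr* had lower readings on every tested probe, each at an unadjusted p under 0.05, a reading chosen after the values were seen that 2.95% of genes with several tested probes shared.

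In this pathway insulin or an insulin-like growth factor binds a receptor tyrosine kinase, which phosphorylates the docking proteins Irs1 and Irs2. These recruit PI3K, whose lipid product brings Pdpk1 and Akt to the membrane. Akt releases mTORC1 from the Tsc1-Tsc2 brake on Rheb, inhibits Gsk3, and moves the glucose transporter Slc2a4 to the cell surface by phosphorylating Tbc1d1 and Tbc1d4. A parallel arm through Grb2 and a kinase cascade ends, together with Pdpk1, on the RSK kinases. In brown fat the pathway is known for driving glucose uptake, lipid synthesis and adipocyte differentiation. Most of its switches are phosphorylations, which arrays of mRNA do not measure.

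C57BL/6J mice, male and 12 weeks old, had been given a single intravenous injection of 100 μL, either saline alone (4 Co mice) or saline with sonicated *P. gingivalis* (4 Pg mice), and brown adipose tissue from between the shoulder blades was taken 18 h later. The dose is printed in the labels as 108 CFU, an exponent that lost its raised position. The labels name no transgene and give 1 one-color Agilent array for each mouse. A single slide held the 8 arrays, with Co in row 1 and Pg in row 2 and a common scan time, so that position and group cannot be told apart. The Co arrays had 34760 to 35831 probes well above background and the Pg arrays 31132 to 34063, while negative control spots spread by 8.10 to 9.75 intensity units in Co and by 11.6 to 18.7 in Pg. Of 10 brown adipocyte markers, 6 were above background on all 8 arrays and *Ucp1*, *Elovl3*, *Bmp8b* and *Slc27a2* on none, while all 12 skeletal muscle markers and all 10 adipocyte markers were above background on all 8. The reading of the defining marker *Ucp1*, which has 1 probe on this array, thus goes against the label BAT and that of *Cidea*, above background on all 8 arrays, does not, and the label is used here as the submitters gave it. Of the summed signals, that of the muscle markers was by far the largest, at 2667630 to 2876440 in Co and 2561500 to 2819380 in Pg mice (10 of 12 nominally lower, 1 called). The summed signal of the adipocyte markers was 93327 to 108077 and 90137 to 119784 (8 of 10 nominally higher, none called). That of the brown adipocyte markers was 232456 to 246342 in Co and 251493 to 279209 in Pg mice, higher without overlap, but *Cox7a1*, which muscle also expresses, made up 92.4% to 94.7% of it, and 3 of its 6 tested genes were nominally higher and 3 lower, none with q under 0.1. The 8 macrophage markers summed to 8321 to 14240 and 8290 to 27391 (all 8 nominally higher in Pg, none with q under 0.1), and the 7 endothelial markers to 12429 to 16101 and 15115 to 16675 (4 higher, 3 lower, 1 called). The neutrophil markers summed to 40037 to 50115 and 47482 to 54977, a sum that *Csf3r* dominated (log2 fold change 0.24). All 5 tested were nominally higher without passing, with *S100a8* at 2.16 and *S100a9* at 2.04 (q = 0.132 and 0.195 by limma), and *Cxcr2* and *Retnlg* were above background on 2 Pg arrays each and on no Co array. What part the cell mixture had in any value below was not tested, and in tissue RNA fewer cells of a type and less RNA per cell cannot be told apart.

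Since the calls turned on which probe of a gene was read, stretches of 30 bases of the 60-base probes of 5 genes are shown, as the array files give them (5′ to 3′, mm9 positions of the whole probe). For each gene the brightest probe comes first and the probes that passed the test follow. No base is singled out by capitals.
*Igf1* A_55_P2085979, brightest (chr10:87378456-87378515, plus strand): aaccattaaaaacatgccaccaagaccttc
*Igf1* A_52_P306327, higher in Pg (chr10:87325382-87325441, plus strand): taaaatagttgagtaaaatttgccactgat
*Inpp5e* A_66_P119191, brightest (chr2:26252822-26252881, minus strand): gagtagggacctctccactctacaggccaa
*Inpp5e* A_55_P2032770, lower in Pg (chr2:26254077-26254136, minus strand): cttcagaccaccgtcctgtgtatggcttgt
*Inpp5e* A_52_P597134, lower in Pg (chr2:26254782-26254841, minus strand): cagagattcactttcttccatcctacaagt
*Gsk3b* A_55_P1981415, brightest (chr16:38241177-38241236, plus strand): tgtgtacttatccttaggatttgaagactt
*Gsk3b* A_65_P12518, lower in Pg (chr16:38209014-38209073, plus strand): aatgtccacatgacattgattagttcgttt
*Slc2a4* A_51_P217498, brightest (chr11:69756073-69756132, minus strand): gttttgaagaacggatagggagcagaaacc
*Slc2a4* A_55_P2734837, lower in Pg (chr11:69757309-69757368, minus strand): gaaataggtggaaatccagcagcttagatt
*Rps6ka3* A_55_P2787405, brightest (chrX:155805713-155805771, plus strand): attattttgcatttttggccatgggtggga
*Rps6ka3* A_55_P1952981, lower in Pg (chrX:155765725-155766303, plus strand): tgtatcttattttggattttctcaggggcg
*Rps6ka3* A_55_P1952985, lower in Pg (chrX:155741272-155741331, plus strand): tcatcagcatggtttcgtagccatgtttaa
The probes of a gene lay on 1 strand but apart: the *Igf1* pair by 53.1 kb, the *Gsk3b* pair by 32.2 kb, and the *Slc2a4* pair by 1.24 kb. Exon and UTR positions are not given, since no mm9 annotation was used here. The called probes of *Igf1* and *Slc2a4* were designed on cDNA clones and that of *Gsk3b* on an Ensembl transcript, while their brightest probes were designed on RefSeq mRNAs. The called *Inpp5e* probes and *Rps6ka3* probe A_55_P1952981 were themselves designed on RefSeq mRNAs, of which A_52_P597134 and A_55_P1952981 share the mRNA of the brightest probe of their gene.

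Read from its brightest probe, every one of the 35 genes was well above background on all 8 arrays, and none was saturated. Values are quantile-normalized log2 signals, changes are Pg minus Co on that scale, and q is the Benjamini-Hochberg value of limma's moderated test over 33819 tested probes (n = 4 arrays per group throughout). Of the 35 genes, 14 were nominally higher and 21 lower (60%, against 52.8% of all genes), a split that did not hold, since 13 were lower without Co 4, 15 without normalization between arrays and 24 with scaling to the upper quartile. They had a median log2 fold change of -0.01, against -0.01 for all 22320 genes read the same way. None passed q under 0.1, where 6.23% of all genes did (1.18% with a fold change above 1.5 as well). At an unadjusted p under 0.05 there were 11 of 35 genes, 4 higher and 7 lower, where the share of all genes was 20.3%. Co and Pg arrays were fully apart for 5 of the 35, *Pdpk1* and *Mlst8* higher and *Rptor*, *Rps6ka2* and *Rps6ka3* lower, a share equal to the 14.3% of all genes. The log2 fold change was under 0.1 in size for 21 of the 35 genes, and for 32 of them its 95% interval lay within a 1.5-fold change either way. The exceptions were *Irs1*, *Pik3r1* and *Rps6ka3*.

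**Figure D1:**
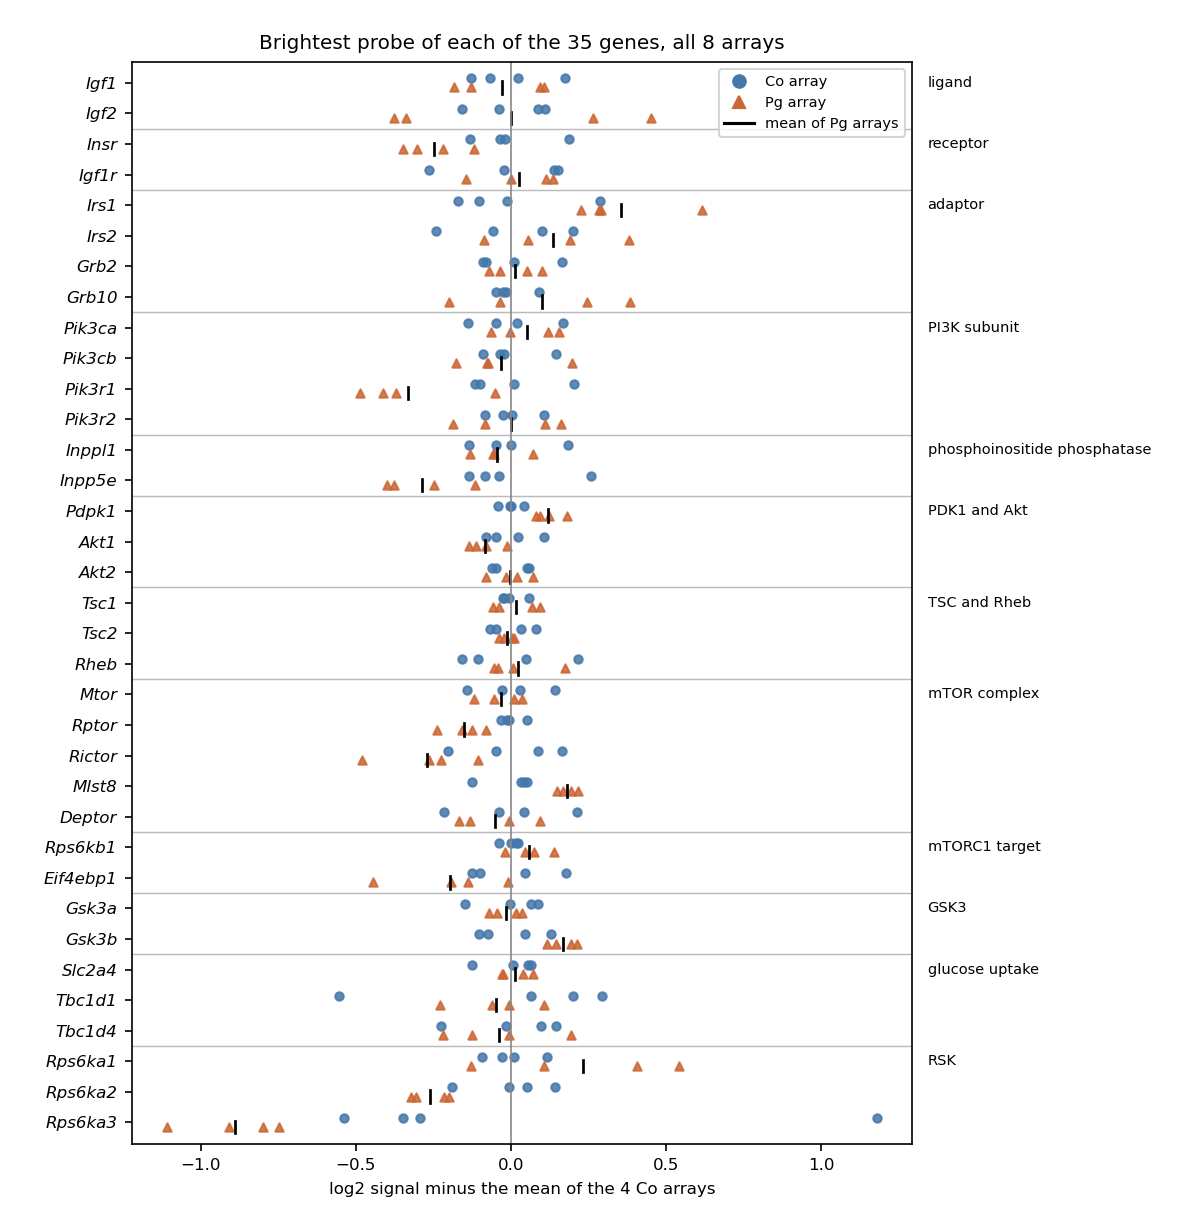
The brightest probe of each of the 35 genes (rows, grouped by role), with the log2 signal of each of the 4 Co arrays (circles) and 4 Pg arrays (triangles) minus the mean of the Co arrays on the horizontal axis and the mean of the Pg arrays as a vertical line. Most Pg means sit within 0.1 of 0, and the Pg triangles lie clear of the Co circles only for *Pdpk1*, *Mlst8*, *Rptor*, *Rps6ka2* and *Rps6ka3*.

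Among the ligands, *Igf1*, the growth factor made by liver and many other tissues, gave 3 probes that did not move together. Its brightest probe read 10.38, 10.22, 10.13 and 10.07 on Co arrays 1 to 4 and 10.31, 10.30, 10.07 and 10.02 on Pg arrays 1 to 4, with the groups mixed and a log2 fold change of -0.03 (95% interval -0.25 to 0.20). The called probe, A_52_P306327, read 4.93, 4.54, 4.85 and 4.91 in Co and 5.30, 5.83, 5.47 and 5.79 in Pg mice. Every Pg array was above every Co array on it, and it rose by 0.79 on the log2 scale, or 1.73-fold (SE 0.14, q = 0.0517 by limma). The remaining probe changed by 0.15 (q = 0.662 by limma). The change of the brightest minus that of the called probe was -0.82 on the log2 scale (SE 0.18, q = 0.041 by limma on the per-array difference), and unequal changes of other pairs are given in the same direction. *Igf2*, the second growth factor, had changes of -0.00039 and 0.10 on its pair of probes, neither called.

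Of the receptors, *Insr*, which binds insulin, was lower on both probes without passing the test. Its brightest probe read 8.84, 8.93, 8.95 and 9.16 in Co and 8.67, 8.62, 8.85 and 8.75 in Pg mice, with only the highest Pg array (Pg 3) above the lowest Co array. The log2 fold change was -0.25 (SE 0.086, q = 0.148 by limma), and that of the dimmer probe was -0.33 (q = 0.149 by limma). *Insr* is a gene whose call depended on the background step: its brightest probe passed with normexp correction and also with uncorrected median signals. *Igf1r*, which binds the insulin-like growth factors, had a change of 0.03 on its brightest probe (95% interval -0.23 to 0.28). Its dimmer probes ranged from -0.21 to 0.56, the latter with a single high array, Pg 3.

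All 4 adaptor genes were nominally higher on their brightest probes, and none passed. *Irs1*, a docking protein of the receptors, read 12.24, 12.18, 12.63 and 12.33 in Co and 12.57, 12.96, 12.63 and 12.64 in Pg mice. Of the Co arrays, only Co 3 reached the Pg range, and Pg 2 stood highest. The log2 fold change of 0.35 was the largest above 0 among the brightest probes (SE 0.13, q = 0.152 by limma). *Irs2*, its relative, had 0.14, *Grb2*, which couples receptors to Ras, 0.01, and *Grb10*, an inhibitor of insulin and IGF receptors, 0.10. The dimmer *Grb10* probes went the other way at -0.29 and -0.37, neither called.

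Of the PI3K subunits, the regulatory subunit gene *Pik3r1* alone had a change above 0.1 in size on its brightest probe. It has a single probe, which read 10.72, 10.41, 10.53 and 10.40 in Co and 10.10, 10.03, 10.46 and 10.14 in Pg mice. Pg 3 alone fell within the Co range, and the log2 fold change was -0.33 (SE 0.11, q = 0.147 by limma). Without Pg 3 it was -0.42 and passed, as it did with normexp. The catalytic subunit genes *Pik3ca* and *Pik3cb* had 0.05 and -0.03 on their brightest probes, and the regulatory *Pik3r2* had -0.0007. The second *Pik3r2* probe was above background on no array and was not tested.

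The phosphoinositide phosphatases, which take a phosphate off the PI3K product or its relatives, differed in their readings. *Inppl1*, which acts on that product, had log2 fold changes of -0.04 (95% interval -0.23 to 0.15) and -0.05 on probes 0.149 kb apart. *Inpp5e*, a phosphatase of the primary cilium, was lower on all 3 probes. The brightest read 9.92, 9.53, 9.58 and 9.62 in Co and 9.42, 9.55, 9.26 and 9.29 in Pg mice, where Pg 2 lay just above the lowest Co array (log2 fold change -0.29, q = 0.167 by limma). Probe A_55_P2032770 read 7.12, 7.07, 7.07 and 7.15 in Co and 6.19, 6.43, 6.44 and 6.92 in Pg mice. Its groups did not overlap, and it fell by 0.60 on the log2 scale, or 1.52-fold (SE 0.14, q = 0.0717 by limma). Probe A_52_P597134 read 6.23, 6.14, 6.25 and 6.51 in Co and 5.90, 5.60, 5.65 and 5.63 in Pg mice, again without overlap, and fell by 0.59, or 1.502-fold (SE 0.10, q = 0.0505 by limma). Averaged over its 3 probes, *Inpp5e* fell by 0.49 on the log2 scale (SE 0.066, q = 0.0466 by limma over gene means). The pair tests of its probes did not pass (q = 0.308 and 0.207 by limma), so that unequal change was not shown.

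Of the kinases that PI3K recruits, *Pdpk1*, which phosphorylates Akt, S6 kinases and RSKs, had groups that did not overlap but a small change. Its brightest probe read 12.59, 12.59, 12.55 and 12.63 in Co and 12.71, 12.68, 12.77 and 12.67 in Pg mice, a log2 fold change of 0.12 (SE 0.051, q = 0.213 by limma). *Akt1* and *Akt2*, the kinases at the centre of the pathway, had -0.08 and -0.0018 on their brightest probes, with 95% intervals of -0.23 to 0.06 and -0.14 to 0.14. None of their dimmer probes was called.

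The genes of the brake on mTORC1 had changes near 0 on their brightest probes. *Tsc1* had a log2 fold change of 0.02, *Tsc2* of -0.01 and *Rheb*, the GTPase they restrain, of 0.02. *Tsc2* read 13.70, 13.80, 13.72 and 13.85 in Co and 13.73, 13.77, 13.74 and 13.77 in Pg mice on that probe. On probe A_55_P2738972 it read 10.02, 10.38, 10.17 and 10.12 in Co and 9.82, 9.98, 9.89 and 9.68 in Pg mice. Here every Pg array was below every Co array, at -0.33 (SE 0.097, q = 0.108 by limma), short of the threshold. The change of the pair was unequal by 0.32 (q = 0.0829 by limma), a call kept in 2 of the 8 fits with 1 array left out.

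In the mTOR complexes the 5 genes went both ways. *Mlst8*, a subunit of both complexes, read 10.66, 10.65, 10.67 and 10.49 in Co and 10.78, 10.83, 10.77 and 10.81 in Pg mice on its only probe. The groups were apart at a log2 fold change of 0.18 (SE 0.059, q = 0.132 by limma), with Co 4 below the other Co arrays. *Rptor*, the scaffold of mTORC1, read 12.06, 11.97, 11.99 and 12.00 in Co and 11.85, 11.93, 11.88 and 11.77 in Pg mice, apart in the opposite direction at -0.15 (SE 0.056, q = 0.165 by limma). Its dimmer probes did not follow: A_55_P2285501 had 0.07, and A_52_P545472 had 1.25, the largest change of the 83 tested probes and one that rested on Pg 4 at 9.58 against 4.49 to 6.16 on the other Pg arrays (SE 1.00, q = 0.497 by limma). A further *Rptor* probe was above background on no array. *Rictor*, which defines mTORC2, read 7.80, 8.09, 7.95 and 8.16 in Co and 7.73, 7.77, 7.52 and 7.89 in Pg mice on its brightest probe, with a log2 fold change of -0.27 (SE 0.11, q = 0.19 by limma) and overlap. Its 5 dimmer probes ranged from -0.39 to -0.0021, none called. *Mtor*, the kinase itself, read 10.48, 10.54, 10.66 and 10.37 in Co and 10.52, 10.40, 10.55 and 10.46 in Pg mice on its brightest probe, a change of -0.03 with the groups mixed. Its dimmer probe read 7.52, 7.51, 7.53 and 7.37 in Co and 7.11, 6.97, 7.18 and 7.37 in Pg mice, 7.37 on both Co 4 and Pg 4 and lower on the other Pg arrays. That probe had -0.32 and lay at the threshold without passing (q = 0.1004 by limma), and the pair changed unequally by 0.29 (q = 0.0868 by limma), which with 1 array left out held only without Pg 4. *Deptor*, an inhibitor of mTOR, had -0.05 and -0.05 on its bright probes and 0.43 on one that was above background on only 4 arrays (q = 0.2 by limma).

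Of the mTORC1 targets, *Rps6kb1*, the S6 kinase gene, read 12.77, 12.79, 12.78 and 12.72 in Co and 12.90, 12.74, 12.84 and 12.81 in Pg mice on its brightest probe, a log2 fold change of 0.06 with overlap. A dimmer probe read 9.12, 9.20, 8.99 and 8.87 in Co and 8.89, 8.82, 8.74 and 8.85 in Pg mice, a change of -0.22 (q = 0.167 by limma). The change of this pair was unequal by 0.28 (q = 0.0744 by limma), which with 1 array left out held only without Co 4. Of the other *Rps6kb1* probes, 1 had -0.20 and 1 was above background on no array. *Eif4ebp1*, the translation repressor that mTORC1 switches off, read 13.99, 13.72, 13.69 and 13.86 in Co and 13.68, 13.80, 13.37 and 13.62 in Pg mice on its only probe. Pg 3 was lowest and Pg 2 alone fell within the Co range, at a log2 fold change of -0.20 (SE 0.11, q = 0.328 by limma).

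Probes past an unadjusted p of 0.05 in opposite directions occurred in 237 of the 7489 genes of the array with several tested probes. Among the 27 such genes here, 1 had them, *Gsk3b*, a kinase that holds glycogen synthase inactive until Akt inhibits it. Its brightest probe read 13.36, 13.39, 13.51 and 13.59 in Co and 13.58, 13.66, 13.68 and 13.61 in Pg mice, overlapping only where Co 4 exceeded Pg 1, with a log2 fold change of 0.17 (SE 0.068, q = 0.196 by limma). Probe A_65_P12518 read 6.01, 5.88, 6.07 and 5.80 in Co and 5.64, 5.48, 5.68 and 5.68 in Pg mice. The groups were apart there, and it fell by 0.32 on the log2 scale (SE 0.082, q = 0.0807 by limma). Probe A_51_P514412 read 9.79, 9.63, 9.75 and 9.91 in Co and 9.51, 9.60, 9.59 and 9.46 in Pg mice, also apart, with -0.23 (q = 0.121 by limma). Against the brightest probe, A_65_P12518 changed unequally by 0.49 (q = 0.0444 by limma) and A_51_P514412 by 0.40 (q = 0.0278 by limma). The fourth *Gsk3b* probe, 4.92 kb from the brightest, had 0.08. *Gsk3a*, the sister kinase, had -0.02 on its brightest and -0.34 on its other probe (q = 0.23 by limma), which lies 0.157 kb away.

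For glucose uptake, *Slc2a4*, the insulin-responsive glucose transporter, read 16.44, 16.43, 16.25 and 16.38 in Co and 16.41, 16.35, 16.45 and 16.35 in Pg mice on its brightest probe. The groups were mixed, with a log2 fold change of 0.01 (95% interval -0.13 to 0.16). Probe A_55_P2734837 read 7.60, 7.53, 7.48 and 7.43 in Co and 7.13, 7.12, 7.35 and 7.07 in Pg mice. On it the groups were apart, and it fell by 0.34 on the log2 scale (SE 0.077, q = 0.0668 by limma). The unequal change of this pair, 0.36 (q = 0.0365 by limma), passed in all 8 fits that left out 1 array. The Rab regulators *Tbc1d1* and *Tbc1d4*, which hold transporter vesicles inside the cell, had -0.05 and -0.04 on their brightest probes. Their 4 dimmer probes lay between -0.26 and -0.10, none called.

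The 3 RSK genes encode kinases that this cascade and Pdpk1 activate. *Rps6ka3* had lower readings on all 4 probes, 3 of them measured in both groups. Its brightest probe read 10.80, 9.08, 9.28 and 9.33 in Co and 8.52, 8.82, 8.88 and 8.71 in Pg mice, so that Co 1 stood far above the rest and the remaining Co arrays were still above every Pg array. The log2 fold change of -0.89 had an SE of 0.36 (q = 0.191 by limma). Without Co 1 it was -0.50 and passed (q = 0.0969 by limma). Probe A_55_P1952981 read 7.01, 7.004, 7.15 and 7.21 in Co and 6.74, 6.57, 6.93 and 6.69 in Pg mice, apart, and fell by 0.36 on the log2 scale (SE 0.091, q = 0.0796 by limma). Probe A_55_P1952985 read 4.67, 5.26, 4.44 and 5.66 in Co mice and 4.12, 4.05, 4.04 and 3.93 in Pg mice, where no array had it well above background. With the reported processing its signal in Pg mice was lower by at least 1.44-fold. For this bound the Pg level was set per array at the higher of its reading and the lowest signal well above background. Under the alternatives the log2 fold change of this probe was as small as -0.31, so the bound is given for the reported processing only. The q of 0.0828 by limma tests the readings and not the bound, and the probe entered that test through the Co arrays alone. Probe A_52_P283628 had -0.28 with overlap (q = 0.171 by limma).

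*Rps6ka2* read 10.92, 11.16, 11.10 and 11.25 in Co and 10.79, 10.80, 10.91 and 10.89 in Pg mice on its brightest probe. The groups were narrowly apart at -0.26 (SE 0.080), the lowest q among the brightest probes (0.118 by limma). It passed without Co 1, with the median signal and with the filter of all 8 arrays. Its dimmer probes had -0.03 and -0.15. *Rps6ka1* read 8.65, 8.55, 8.61 and 8.76 in Co and 8.75, 9.05, 8.51 and 9.18 in Pg mice on its brightest probe, where Pg 2 and Pg 4 were high and Pg 3 was the lowest array (log2 fold change 0.23, SE 0.14, q = 0.38 by limma). Its other probe, 0.636 kb away, read 6.66, 6.55, 6.58 and 6.90 in Co and 6.41, 6.64, 5.96 and 6.98 in Pg mice, with the same order of the Pg arrays from Pg 3 up to Pg 4 and a change of -0.18 (q = 0.639 by limma). Although neither probe passed, their changes were unequal by 0.41 (q = 0.0403 by limma), in all 8 fits with 1 array left out and in 5 of 8 other settings.

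**Figure D2:**
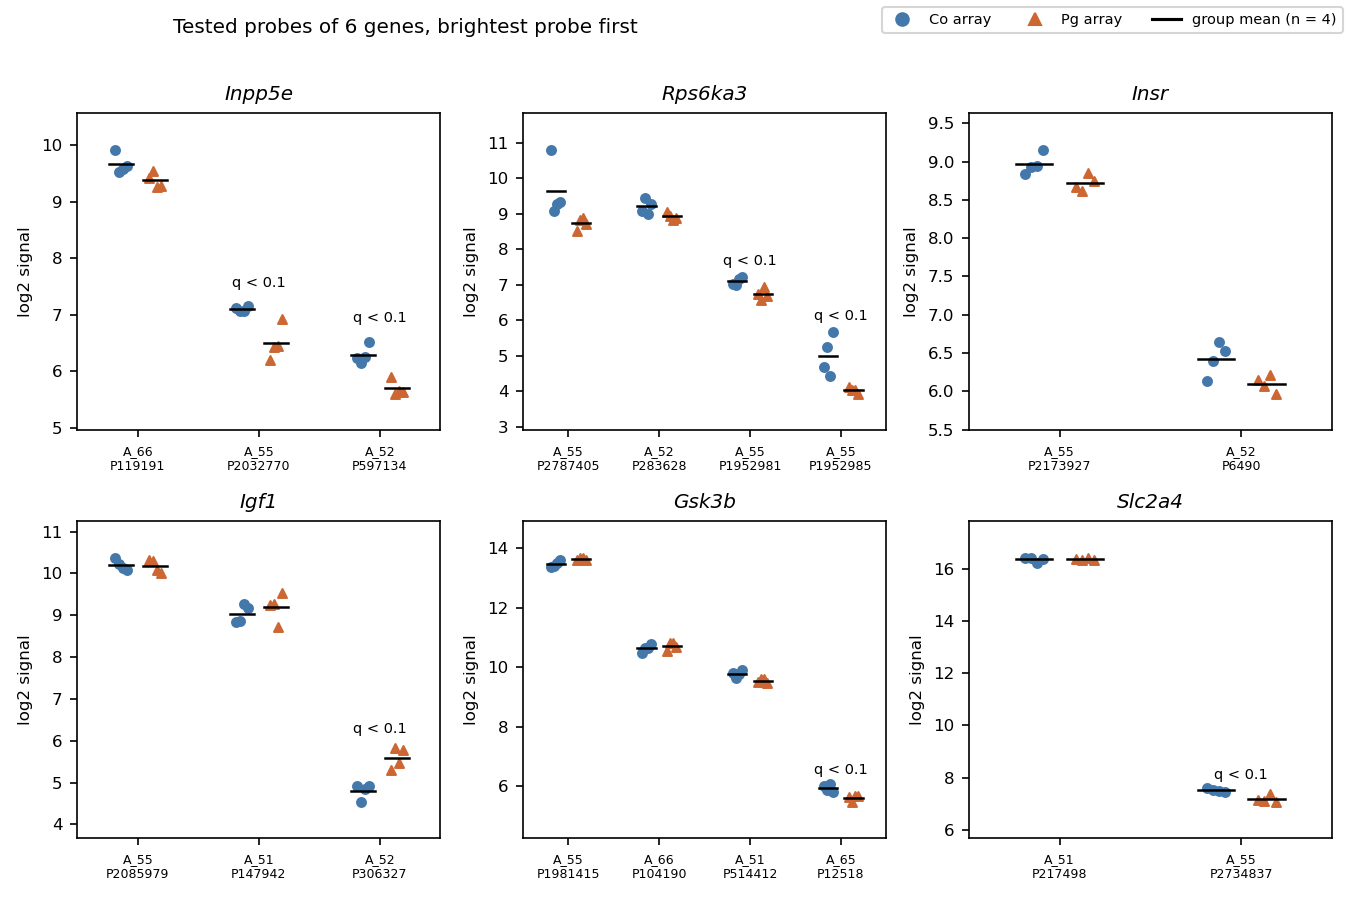
Log2 signal (vertical axis, its range set for each gene) on the 4 Co arrays (circles) and 4 Pg arrays (triangles) for every tested probe of *Inpp5e*, *Rps6ka3*, *Insr*, *Igf1*, *Gsk3b* and *Slc2a4*, brightest probe first, with group means as lines. The first 3 genes are lower in Pg mice on every probe, while for the last 3 the probe with q under 0.1 differs from a brightest probe that did not pass.

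Over all 48 dimmer probes, 11 were nominally higher and 37 lower, with a median log2 fold change of -0.16, against -0.10 for the 11499 such probes on the array, of which 67.2% were lower. Arrays scaled to their 75th percentile gave 33 of the 48 lower (median -0.10), and arrays without normalization 30 (median -0.05), where the median of all such probes was -0.06 and -0.0083. Of the 48, 6 fell (12.5% where the array had 9.51%) and 1 rose (the array had 1.38%). The 6 include *Rps6ka3* probe A_55_P1952985, above background on no Pg array and tested through Co alone, which raises their share. Co and Pg arrays were fully apart for 12 of the 48 (25%), 11 lower and 1 higher, where 18.7% of all such probes were. The change of a dimmer probe relative to the brightest probe of its gene passed for 8 of 48 pairs (16.7%), in *Igf1*, *Tsc2*, *Mtor*, *Rps6kb1*, *Gsk3b* (2 pairs), *Slc2a4* and *Rps6ka1*, against 17.6% of the 11496 pairs on the array. These counts lay near the background of the array. Of the 27 genes with more than 1 tested probe, 13 were lower on every probe, 1 was higher on every probe and 13 were mixed, against 31.7% lower on every probe over 7489 genes. *Insr*, *Inpp5e* and *Rps6ka3* were the 3 with an unadjusted p under 0.05 on each probe, a reading chosen after the values were seen, and 2.95% of the 7489 genes had the same. For *Rps6ka3* this held for the 3 probes above background in both groups.

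The called probes were dim. Those under a mean log2 signal of 6 (14 tested probes of the 35 genes) held 4 of the 7 calls, 28.6% where the array had 7.45% (3 of 13 without the *Rps6ka3* probe that was above background on no Pg array), and those from 6 to 8 (17 probes) the other 3, 17.6% where it had 9.05%. None of the 52 brighter probes was called, while on the whole array 8.76% of the probes from 8 to 10, 7.39% from 10 to 12 and 5.49% from 12 upward were. The lean toward lower values in Pg mice also depended on signal over the whole array: the median log2 fold change of all tested probes went from -0.13 under 6 to -0.08, -0.03, -0.0085 and 0.0090 in the successive ranges of 6 to 8, 8 to 10, 10 to 12 and 12 upward. For the probes of the 35 genes the medians were -0.16, -0.26, -0.10, -0.03 and 0.0062. On the Pg arrays, the median of their dimmer probes lay 0.13 to 0.19 below the Co mean on each array, and that of their brightest probes 0.01 to 0.04 below it. The negative control spread, given above, moved with the group and so did the number of these probes above background, 82 or 83 on each Co array and 77 to 82 on the Pg arrays. Their part in the changes of dim probes was not tested.

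**Figure D3:**
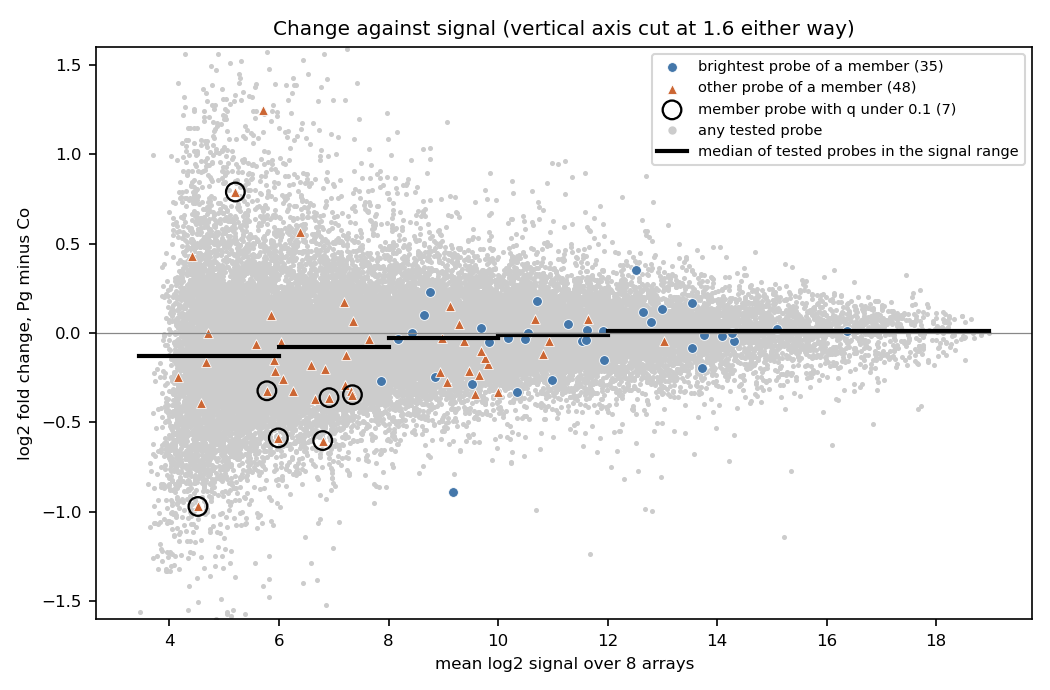
Log2 fold change (Pg minus Co, vertical axis) against mean log2 signal over 8 arrays (horizontal axis) for all tested probes (gray), the brightest probes (circles) and dimmer probes (triangles) of the 35 genes, with rings on the 7 called probes and the median of all probes per signal range as black lines. The axis leaves out 69 probes that changed by over 1.6, none of them of the 35 genes. The rings lie at a signal under 8, where the black lines are below 0, and 1 ring, *Igf1*, lies above 0.

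The rest of the pathway, 122 further genes listed by role, was read in the same fit. Of the 119 that could be tested by their brightest probe, 40 were nominally higher and 79 lower (66.4%, against 52.8% of all genes). Their median log2 fold change was -0.05, against -0.01 for all genes. Of these 119, 5 passed, all lower, which is 4.2% where 6.23% of all genes passed. They were *Gab1*, an adaptor of growth factor receptors (-0.40, q = 0.0706 by limma), *Foxo3*, a transcription factor that Akt excludes from the nucleus (-0.28, q = 0.0636), *Rraga*, a Rag GTPase that recruits mTORC1 to the lysosome (-0.42, q = 0.0555), *Rps6kb2*, the second S6 kinase gene (-0.24, q = 0.0935), and *Rps6ka5*, a kinase related to the RSKs (-0.46, q = 0.0703). All 3 FoxO genes tested were nominally lower, with changes from -0.38 to -0.27. Of the 111 dimmer probes of these genes, 13 passed, all lower, which is 11.7% where 9.51% of all such probes were called lower. Among them were probes of *Foxo1* (-0.66), *Tfeb*, a lysosome regulator under mTORC1 (-0.69 and -0.50), and the autophagy kinase *Ulk1* (-0.67), whose brightest probe had 0.19. Calls were also made on *Inpp5k* (-0.48), *Foxo3* (-0.42), *Tti1* (-0.65), *Eef2k* (-0.40 and -0.69), *Map2k1* (-0.39) and *Rps6ka5* (-0.37).

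The calls on the 35 genes were not equally firm. The *Igf1* probe A_52_P306327 and the *Inpp5e* probe A_52_P597134 each passed in 6 of the 8 fits with 1 array left out, the exceptions being those without Co 2 or Co 3. Their log2 fold changes in these fits ran from 0.70 to 0.89 and from -0.66 to -0.51. Over all alternatives they ran more widely, from 0.30 to 0.98 and from -0.66 to -0.31. The other *Inpp5e* probe, the *Slc2a4* probe and the *Rps6ka3* probe A_55_P1952981 passed in 1 of these fits each, and the *Gsk3b* probe in none. The remaining *Rps6ka3* probe, A_55_P1952985, passed in none of the 4 fits without a Pg array and had too few arrays above background to be tested without a Co array. Of the 8 unequal pairs, those of *Igf1*, *Slc2a4*, *Rps6ka1* and *Gsk3b* A_51_P514412 passed in all 8 fits, that of *Gsk3b* A_65_P12518 in 6, and those of *Tsc2*, *Mtor* and *Rps6kb1* in 1 or 2. In the 8 other settings the *Slc2a4* pair and *Gsk3b* A_51_P514412 passed in all, *Igf1* in 7, *Rps6ka1* and *Tsc2* in 5, and the rest in 4. No direction turned in any setting for the 7 probes. Without Co 3 only 2 probes of the whole array passed, and none was of these genes.

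**Figure D4:**
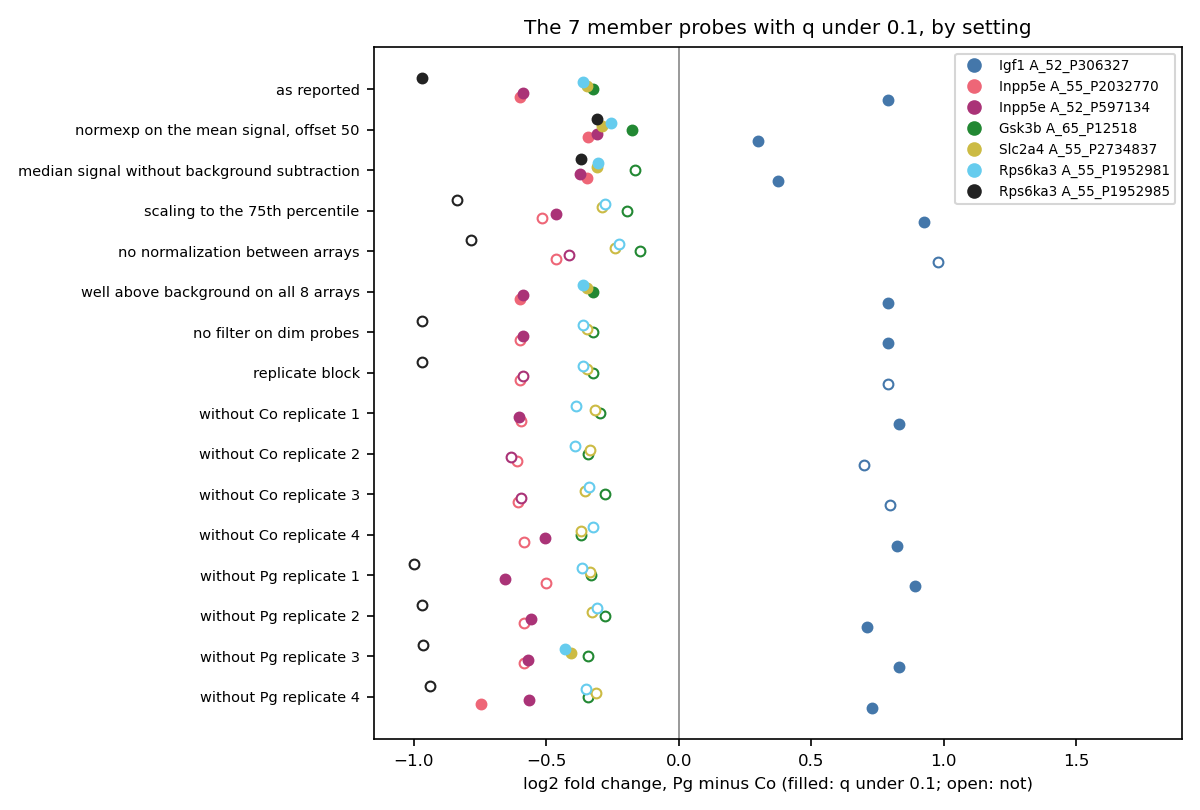
Fitted log2 fold change (horizontal axis) of the 7 called probes of the 35 genes under the reported processing, 7 alternatives and the 8 fits that leave out 1 array (rows), filled where q was under 0.1. Every value stays on its side of 0, and the *Igf1* probe and 1 *Inpp5e* probe are filled in most rows.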

How the data were processed

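Gene expression was measured on 8 one-color Agilent arrays, 4 of Co and 4 of Pg mice. For every array the authors deposited what Feature Extraction 11.0.1.1 wrote, in which the processed intensity of a spot is background-subtracted and detrended but not normalized between arrays. They also deposited a table of quantile-normalized log2 values with fold changes and p-values of their own comparison, whose results were not used. Here the processed intensities were averaged per probe, quantile-normalized, raised to at least 1 and log2-transformed, and limma 3.58.1 in R 4.3.3 was run on the 33819 of 56605 probes marked as well above background by 4 or more arrays (lmFit and eBayes, two-sided, Benjamini-Hochberg), after tests on simulated data. A call is q under 0.1, as in the methods of the study, where a fold change above 1.5 is also required of a DEG. The brightest probe stood for a gene in tallies, and pairs of probes were compared through their per-array difference.

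All 35 genes are named. Array values are given for those with a called probe, for the 12 largest changes of brightest probes, and for unequal or opposed probes, and other pathway genes are named when called, except some that are not reported here. Values of *Pdpk1* and of single dimmer probes were added after they were seen. The genes and lists were chosen with earlier results of these data known. Alternatives were other background steps, scalings, filters and floors, the deposited log2 values, probe means, a replicate block and fits without 1 array. All 35 names and the 122 of the other pathway genes matched the RefSeq table. The labels number the mice within each group, and p-values measure the spread between these arrays, whose number limits the precision.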

Additional observations from a re-analysis of the deposited data

Results flagged for a closer look

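In 166 groups of 4 arrays (83 probes in 2 groups), the highest or lowest array of 9 stood apart by Dixon's ratio of its gap to the range of the group, above the 95% critical value for 4 arrays, and chance alone flags about 1 in 20 groups, or 8.3 here. *Rps6ka3* on its brightest probe had Co 1 at 10.80 against 9.08 to 9.33 (ratio 0.857), and *Irs1* had Pg 2 at 12.96 against 12.57 to 12.64 (0.839). *Mlst8* had Co 4 at 10.49 against 10.65 to 10.67 (0.888). Pg 3 was high on dimmer probes of *Grb10* (A_52_P40363, 7.53 against 6.86 to 6.94, 0.879), *Pik3cb* (A_55_P2743735, 7.40 against 5.34 to 5.67, 0.836) and *Pdpk1* (A_55_P2014357, 12.32 against 11.41 to 11.53, 0.878). Co 4 was low on dimmer probes of *Mtor* (A_52_P67643, 7.37 against 7.51 to 7.53, 0.872) and *Rps6ka2* (A_65_P02755, 7.59 against 7.68 to 7.70, 0.838), and Co 1 was low on *Rps6ka2* probe A_55_P2731846 (5.76 against 6.05 to 6.07, 0.911).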

How the results depend on the processing

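As reported, 2644 probes of the array, 0 of the 35 brightest probes, 7 probes of the 35 genes, 5 other pathway genes and 8 probe pairs passed q under 0.1, and the median change of the 35 brightest probes was -0.0120. With normexp on the mean signal these were 3 brightest probes (*Inpp5e*, *Insr* and *Pik3r1*), 11 probes and 9 other pathway genes, as the array rose to 3452 probes, and with the median signal 3 brightest probes (*Inpp5e*, *Insr* and *Rps6ka2*) and 3065 probes of the array. Scaling to the 75th percentile gave 1546 probes of the array, 2 probes of the 35 genes, 4 pairs and a median of -0.0394. No normalization between arrays gave 29 probes of the array, 0 of the 35 genes, 0 other pathway genes and 4 pairs, and 31.0% of its calls were lower in Pg mice, against 76.7% as reported. A filter of all 8 arrays gave 1 brightest probe (*Rps6ka2*) and 3009 of 29222 probes of the array. No filter gave 1269 probes of the array, 2 of the 35 genes, 2 other pathway genes and 3 pairs. The deposited log2 values gave 1715 entries, 3 brightest entries and 3 pairs, and the mean of all tested probes of a gene gave 2 of the 35 genes (*Inpp5e*, and *Rps6ka3* with the probe that was above background on no Pg array) with a median of -0.0472. A floor of 8 changed none of these counts by over 1.5 times.

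Fits without 1 array gave 2 (without Co 3) to 2414 (without Pg 3) probes of the array, 0 to 2 brightest probes, 0 to 7 probes of the 35 genes, 0 to 5 other pathway genes, 4 to 7 pairs and a median of -0.0202 to 0.0163. With a replicate block, 0 probes of the array passed, and with them 0 of the 35 genes and 0 other pathway genes, while 5 pairs passed. The deviations of same-numbered arrays from their group means correlated at 0.059, -0.027, -0.068 and 0.18, and those of differently numbered arrays at -0.15 to 0.13. Same-numbered arrays also shared a column of the slide. So few correlations cannot decide whether the numbers pair the mice. The cause of the differences between settings was not tested. The log2 fold changes of the 7 called probes kept their direction in every setting that tested them.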
